A study of Mus musculus with 6 samples.

Results

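The genes described here encode the cytosolic heat shock machinery, the CCT chaperonin ring and the mitochondrial chaperones, 35 genes in all, out of 51826 gene rows. They were taken by name from these families, family by family, with earlier results of these data known. All 35 were present in the table under a single gene ID, and all 35 passed the filter on low counts, as did 16071 genes in all. RNA was taken from bone marrow neutrophils of the mouse after treatment with microvesicles, which are membrane particles budded off by cells. The donors of the particles were Hepa1-6 cells, a mouse hepatoma line, deprived of glucose in both groups. In Ctrl_MV (3 libraries) the donors were wild type, and in KD_MV (3 libraries) their ezrin, a linker between membrane and actin, had been knocked down. Strain, age, dose and length of exposure are not given in the sources used here, nor is a group without microvesicles among the samples. No label states that the replicates are different mice or cultures. The p-values therefore measure the spread among these libraries alone, and that spread may be technical. Differences are given as KD_MV minus Ctrl_MV.

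Newly made or damaged proteins are held and folded by HSP70, which J-domain proteins (HSP40) load and exchange factors reset, and many then pass to HSP90 with its co-chaperones. Heat shock factor 1 (HSF1) is held inactive by chaperones and, when unfolded proteins draw these away, binds heat shock elements, repeated GAA blocks in promoters of the chaperone genes. The CCT ring folds actin and tubulin, and the mitochondrial HSP70, HSP60 and HSP10 fold proteins imported into that organelle.

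Most of the 35 genes were higher in KD_MV. In edgeR's quasi-likelihood test with Benjamini-Hochberg adjustment 26 of the 35 rose and 3 fell at an adjusted p of 0.05, and 6 did not pass. Of all tested genes 52.6% were called, 27.8% higher and 24.9% lower. The median log2 fold change was 0.80 over the members and 0.030 over all genes tested. The libraries of the groups did not overlap for 26 members that were above and 6 that were below in KD_MV, whereas 61.3% of all tested genes had groups that did not overlap (32.0% above and 29.3% below). Together the members took 0.551, 0.604 and 0.598% of all counts in Ctrl_MV replicates 1, 2 and 3, and 1.34, 1.38 and 1.40% in KD_MV. Those shares did not overlap between the groups.

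The libraries differed in more than these genes. Total counts ran from 37346055 to 42043434. Hemoglobin genes took 8.96 to 10.6% of counts in Ctrl_MV and 1.02 to 1.18% in KD_MV, and with the 4 hemoglobin genes left out 26 members still rose and 3 fell. Proliferation genes were higher in 11 of 12 cases, with a summed level of 494 to 502 CPM in Ctrl_MV and 1869.6 to 1975 CPM in KD_MV (CPM, counts scaled by library size and TMM factor). Of the other marker lists, 8 of 10 erythroid genes found were lower (106136 to 123312 against 9085 to 10654 CPM), 5 of 8 eosinophil genes were higher (25.0 to 28.2 against 421 to 592 CPM), 5 of 5 granulocyte precursor genes were higher (6.81 to 7.18 against 37.3 to 47.6 CPM) and 5 of 8 B-lineage genes were higher (812 to 1005 against 1728 to 1813 CPM). Neutrophil markers were lower in 6 of 12 cases and higher in 1 (2854 to 3212 against 1972 to 2726 CPM). Monocyte markers were lower in 2 of 6 and higher in 1 (2097 to 2270.1 against 1456 to 1695 CPM), megakaryocyte markers higher in 4 of 5 (44.8 to 56.4 against 99.2 to 128 CPM), T and NK markers lower in 1 of 5 (29.0 to 40.1 against 31.0 to 33.9 CPM), and hepatoma markers lower in 2 of 3 tested of 8 listed (26.8 to 36.9 against 8.21 to 12.3 CPM). Apob and Fgb, of the hepatoma list, were at 0 in all libraries, as no other listed marker was. Against the label of neutrophils, Ly6g (1.68 to 2.77 CPM over the 6 libraries) and Retnlg (0.426 to 4.20 CPM) were scarce, whereas the neutrophil gene S100a8 (361 to 608 CPM) and the macrophage gene Adgre1 (273 to 762 CPM) were well detected. The part of any of these lists in the results below was not tested, and in such mixed RNA fewer cells of a type and less RNA per cell cannot be told apart. Ezr itself, measured in the recipient cells, checks no label here and did not pass (adjusted p = 0.569 in edgeR's test, with a log2 fold change of 0.081 ± 0.11 (SE)). Mitochondrially encoded genes took 0.567, 0.813 and 0.786% of counts in Ctrl_MV replicates 1, 2 and 3, below every KD_MV library. Libraries also differed within groups: in KD_MV replicate 3 these genes took 3.50% of counts, against 1.61 and 1.51% in KD_MV replicates 1 and 2. The part of this difference in the results below was not tested either.

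**Figure D1:**
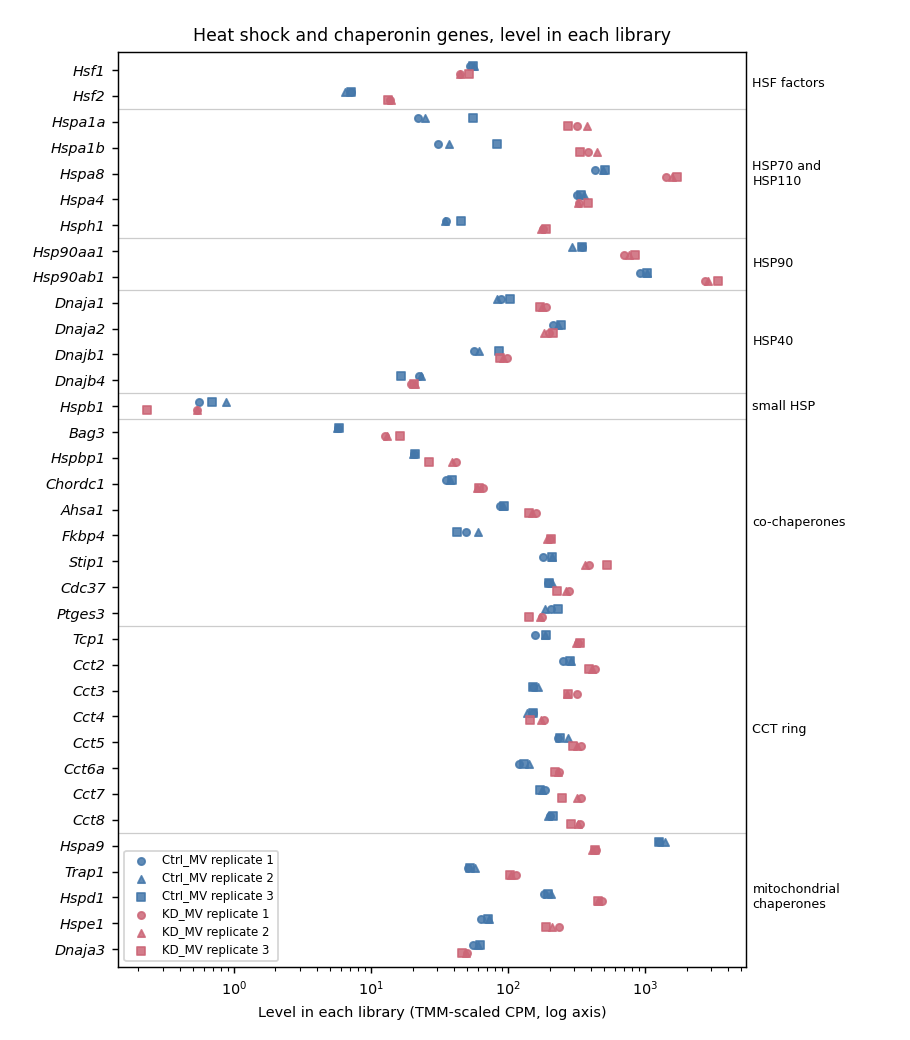
Level of each of the 35 genes in each of the 6 libraries, in TMM-scaled CPM on a log axis, ordered by family; blue points are Ctrl_MV, red points KD_MV, and the marker shape gives the replicate. Red points lie to the right of blue for 26 genes without overlap, Hspa9 stands out with red to the left, and Ctrl_MV replicate 3 lies to the right of the other blue points for Hspa1a, Hspa1b and Dnajb1.

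Of the genes for the heat shock factors themselves, Hsf2 rose and Hsf1 did not pass. Hsf1 (chr15:76477445-76500972, mm10), encoding the master regulator of the heat shock response, stood at 52.1, 56.5 and 55.1 CPM in the Ctrl_MV libraries (replicates 1, 2 and 3, the order used throughout) and at 44.1, 44.7 and 51.6 CPM in KD_MV. The groups did not overlap, but the difference did not pass (log2 fold change -0.22 ± 0.10 (SE), edgeR adjusted p = 0.103). It passed downward without KD_MV replicate 3 (-0.30, adjusted p = 0.0213), turned to 0.18 with library size as the only scaling, and passed upward with limma on log2(TPM + 1) (0.34, adjusted p = 0.0201). Hsf2 (chr10:57486385-57513135), a related factor that can join HSF1 at the same elements, rose from 7.12, 6.39 and 7.09 CPM to 13.6, 13.8 and 13.3 CPM (log2 fold change 0.98 ± 0.12 (SE), edgeR adjusted p = 2.04e-04). Every KD_MV library lay above every Ctrl_MV library for Hsf2. Within a library Hsf1 counts exceeded those of Hsf2 by 2.87, 3.15 and 2.96 on the log2 scale in Ctrl_MV and by 1.70, 1.70 and 1.96 in KD_MV.

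Promoters of the members were read for the heat shock element, because it is the sequence on which HSF1 acts. RefSeq promoters (GRCm38.p6, 250 bases before to 50 after each start) matched 29 of the 35 genes. No promoter was matched for Hsf1, Hspa8, Hsp90aa1, Hsp90ab1, Cct4 and Hspa9. Blocks were searched on both strands as the pair GAANNTTC or TTCNNGAA, and as the triplet GAANNTTCNNGAA or TTCNNGAANNTTC, which holds pairs by construction. The pair occurred in 15.1% of all 32851 promoters of this length and the triplet in 0.603%. By gene, 17.0% of 27025 genes and 15 of the 29 members (51.7%) had the pair, and 0.662% of genes and 4 of the 29 members (13.8%) had the triplet. The 4 were Hspd1, Hspe1, Hsph1 and Chordc1, all of which rose, as did 23 of all 29 members with a promoter. The triplets of Hspd1 and Hspe1 are the same bases read on opposite strands, so these genes are not separate cases. Of members that rose 13 of 23 with a promoter had the pair. Of those that fell 0 of 2 had it, namely Ptges3 and Dnaja3, since no promoter was matched for Hspa9. Of those that did not pass 2 of 4 had it, Hspb1 and Dnajb4. A match is a description and not a bound site, and a promoter without these letters says nothing about the factor.

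The stretches that follow run from 130 bases before to 30 bases from the start on, 5′ to 3′ on the strand of the gene, with every pair matched within the stretch in capitals. Hspe1 (chr1:55088018-55088177, plus strand) is shown for triplets that the promoter at one of the RefSeq starts of its divergent neighbour Hspd1 holds too, and Hsph1 (chr5:149636286-149636445, minus strand, the second of its listed starts) and Chordc1 (chr9:18292137-18292296, plus strand) for triplets close to the start. Hspa1a (chr17:34972127-34972286, minus strand) and Hspa1b (chr17:34959209-34959368, minus strand) are the members with the largest rises. Hspa4 (chr11:53300450-53300609, minus strand), a relative of Hsph1 that did not pass with TMM scaling, is shown as a promoter without a pair. The stretches shown do not stand for all members: Hspb1 and Dnajb4 did not pass and had the pair, and Stip1 and Trap1 rose without it.
Hspe1: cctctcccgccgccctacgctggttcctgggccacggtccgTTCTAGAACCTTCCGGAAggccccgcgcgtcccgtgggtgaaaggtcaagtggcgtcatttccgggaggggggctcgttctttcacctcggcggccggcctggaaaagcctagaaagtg
Hsph1: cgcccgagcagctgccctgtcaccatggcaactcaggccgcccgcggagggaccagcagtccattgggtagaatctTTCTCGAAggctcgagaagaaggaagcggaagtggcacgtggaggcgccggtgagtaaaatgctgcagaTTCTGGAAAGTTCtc
Chordc1: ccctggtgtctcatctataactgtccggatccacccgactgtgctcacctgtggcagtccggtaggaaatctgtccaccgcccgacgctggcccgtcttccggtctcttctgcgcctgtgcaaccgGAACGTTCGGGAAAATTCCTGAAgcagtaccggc
Hspa1a: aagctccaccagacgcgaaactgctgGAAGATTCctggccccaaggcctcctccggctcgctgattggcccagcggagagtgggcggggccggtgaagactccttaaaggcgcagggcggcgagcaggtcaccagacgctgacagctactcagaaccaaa
Hspa1b: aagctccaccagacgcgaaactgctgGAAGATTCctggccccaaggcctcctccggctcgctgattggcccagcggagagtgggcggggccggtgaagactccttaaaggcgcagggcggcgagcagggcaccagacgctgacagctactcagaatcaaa
Hspa4: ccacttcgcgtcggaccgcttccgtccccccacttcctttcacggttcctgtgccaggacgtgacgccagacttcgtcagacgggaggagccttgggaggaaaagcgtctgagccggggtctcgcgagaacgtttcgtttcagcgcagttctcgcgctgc
In Hspe1 the pairs began 89, 84 and 79 bases before the start. In Hspa1a and in Hspa1b a single pair began 104 bases before the start, and their promoters differed at 4 of 300 positions. In Hspa4 there was no pair in the whole promoter.

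The HSP70 family held the largest rises. Hspa1a and Hspa1b (chr17:34969190-34972156 and chr17:34956436-34959238, minus strand) encode the stress-inducible HSP70 and lie 9951 bases apart. Hspa1a had 21.9, 24.5 and 55.6 CPM in Ctrl_MV and 319, 372 and 274 CPM in KD_MV (log2 fold change 3.24 ± 0.34 (SE), edgeR adjusted p = 8.92e-05). Hspa1b had 30.5, 37.0 and 82.8 CPM in Ctrl_MV and 380.5, 440.2 and 331 CPM in KD_MV (log2 fold change 2.94 ± 0.35 (SE), edgeR adjusted p = 1.72e-04). Ctrl_MV replicate 3 was above the other control libraries for both genes, and still below every KD_MV library. Without it the log2 fold changes were 3.79 for Hspa1a and 3.51 for Hspa1b. The coding sequences are 99.4% identical and share 75.3% of their 75-base windows, so the split of reads between this pair is uncertain.

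Hspa8 (chr9:40800984-40810087), the constitutive HSP70 and one of the most abundant members, rose from 430.0, 489 and 509 CPM to 1421, 1559 and 1689 CPM (log2 fold change 1.71 ± 0.12 (SE), edgeR adjusted p = 1.03e-05). The annotation places small nucleolar RNA genes within it on the same strand. Within a library the log2 ratio of the summed counts of Hspa1a and Hspa1b to those of Hspa8 was -3.04, -2.99 and -1.88 in Ctrl_MV and -1.02, -0.94 and -1.48 in KD_MV. These ratios need no scaling and did not overlap (exact two-sided permutation p = 0.1, also after Benjamini-Hochberg adjustment over 7 ratios fixed for this report, and the smallest that 3 against 3 allows).

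The HSP110 genes, whose products exchange nucleotide on HSP70, parted ways. Hsph1 (chr5:149614287-149636376), its heat-inducible form, rose from 34.8, 34.2 and 44.9 CPM to 179, 173 and 189 CPM (log2 fold change 2.25 ± 0.13 (SE), edgeR adjusted p = 3.85e-06). Hspa4 (chr11:53259814-53300457) stood at 318, 359 and 338 CPM in Ctrl_MV and 326, 324 and 381 CPM in KD_MV, with overlapping groups and no call (log2 fold change 0.021 ± 0.11 (SE), edgeR adjusted p = 0.885). The result for Hspa4 rested on the scaling: it passed upward with library size only (0.42, adjusted p = 0.00742) and with limma on log2(TPM + 1) (0.58, adjusted p = 0.00169). The log2 ratio of Hsph1 to Hspa4 was -3.19, -3.39 and -2.91 in Ctrl_MV and -0.87, -0.91 and -1.01 in KD_MV. The ratio thus differed by 2.24 on the log2 scale without overlap (exact two-sided permutation p = 0.1).

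Both HSP90 genes rose. Hsp90ab1 (chr17:45567775-45573271), the constitutive form, went from 919, 1024 and 1033 CPM to 2715, 2850.1 and 3366 CPM (log2 fold change 1.59 ± 0.12 (SE), edgeR adjusted p = 1.90e-05). Hsp90aa1 (chr12:110690605-110702728), the stress-inducible form, went from 343, 293 and 345 CPM to 693, 756 and 833 CPM (log2 fold change 1.22 ± 0.12 (SE), edgeR adjusted p = 5.16e-05). In both genes KD_MV replicate 3 was the highest library. The log2 ratio of Hsp90aa1 to Hsp90ab1 was -1.42, -1.81 and -1.58 in Ctrl_MV and -1.97, -1.91 and -2.01 in KD_MV, lower in each KD_MV library than in any Ctrl_MV library (exact two-sided permutation p = 0.1). Their coding sequences are 75.6% identical and share no 75-base window.

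**Figure D2:**
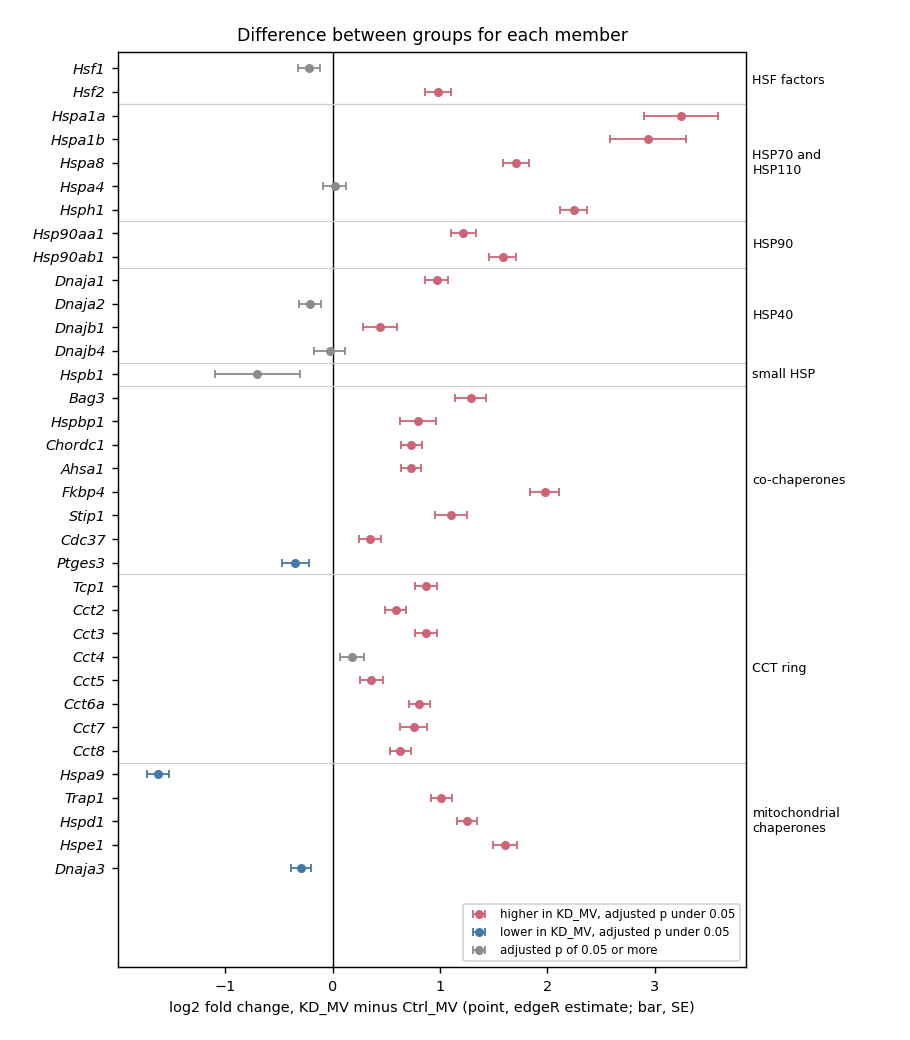
Log2 fold change (KD_MV minus Ctrl_MV, edgeR with TMM scaling) of each gene with its SE; red, higher and blue, lower at an adjusted p of 0.05, grey, not passing. Hspa1a (3.24) and Hspa9 (-1.63) mark the ends, and Ptges3 and Dnaja3 are the other genes in blue, both of which changed sign with library size as the only scaling.

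Among the J-domain proteins, which hand substrates to HSP70, only part of the family rose. Dnaja1 (chr4:40722150-40737149) rose from 88.4, 83.0 and 102 CPM to 188, 176 and 171 CPM (log2 fold change 0.97 ± 0.11 (SE), edgeR adjusted p = 1.08e-04), and the annotation has Smu1 overlapping it on the other strand. Dnajb1 (chr8:83608193-83612653), the J protein of the classical heat shock response, had 56.3, 60.7 and 86.0 CPM in Ctrl_MV and 97.2, 91.7 and 87.2 CPM in KD_MV (log2 fold change 0.44 ± 0.16 (SE), edgeR adjusted p = 0.0416). The gap between Ctrl_MV replicate 3 and KD_MV replicate 3 was small for Dnajb1, and its call was lost when any library but Ctrl_MV replicate 3 was left out (adjusted p = 0.0536 to 0.138), with RLE scaling (0.0533) and without a filter (0.0716). Dnaja2 (212, 228 and 244 CPM in Ctrl_MV, 199, 181 and 212 CPM in KD_MV) did not pass (log2 fold change -0.21 ± 0.10 (SE), edgeR adjusted p = 0.118), and its difference turned to 0.19 with library size only and passed upward with limma on log2(TPM + 1) (0.36, adjusted p = 0.0121). Dnajb4, with 22.1, 23.2 and 16.6 CPM in Ctrl_MV and 19.4, 20.9 and 20.5 CPM in KD_MV, had overlapping groups and did not pass either (log2 fold change -0.025 ± 0.14 (SE), edgeR adjusted p = 0.898), but it passed upward with limma on log2(TPM + 1) (0.52, adjusted p = 0.0108). The log2 ratio of Dnajb1 to Dnaja1 was -0.65, -0.45 and -0.25 in Ctrl_MV and -0.95, -0.94 and -0.97 in KD_MV, again without overlap (exact two-sided permutation p = 0.1).

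Hspb1, the small heat shock protein that holds unfolded proteins without ATP, was close to the detection limit. It had 18, 29 and 23 counts in Ctrl_MV and 24, 24 and 11 counts in KD_MV, or 0.230 to 0.878 CPM, and did not pass (log2 fold change -0.70 ± 0.39 (SE), edgeR adjusted p = 0.167). The SE of Hspb1 was wider than that of any other member.

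Of the 8 co-chaperones of HSP70 and HSP90, 7 rose and 1 fell. Fkbp4 (chr6:128429735-128438677), the immunophilin FKBP52 of steroid receptor complexes, rose the most, from 49.4, 60.1 and 42.4 CPM to 203, 191 and 203 CPM (log2 fold change 1.97 ± 0.13 (SE), edgeR adjusted p = 9.52e-06). Bag3 (chr7:128523616-128546981), an exchange factor that directs HSP70 clients to autophagy, rose from 5.73, 5.63 and 5.81 CPM to 12.7, 12.9 and 16.3 CPM (log2 fold change 1.29 ± 0.14 (SE), edgeR adjusted p = 1.16e-04). Stip1 (chr19:7020696-7040026), the adaptor HOP that joins HSP70 to HSP90, rose from 178, 209 and 208 CPM to 387, 365 and 522 CPM (log2 fold change 1.10 ± 0.15 (SE), edgeR adjusted p = 3.53e-04). In Stip1 KD_MV replicate 3 was far above its group, and without it the log2 fold change was 0.92.

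Smaller rises were seen in 4 further co-chaperones. Hspbp1, another HSP70 exchange factor, rose from 20.4, 20.2 and 20.7 CPM to 41.5, 39.0 and 26.3 CPM (log2 fold change 0.80 ± 0.17 (SE)), and here KD_MV replicate 3 was the lowest of its group. Chordc1, a zinc-binding partner of HSP90, rose from 35.1, 37.3 and 38.9 CPM to 65.4, 58.7 and 61.2 CPM (log2 fold change 0.73 ± 0.10 (SE)). Ahsa1, which speeds up the ATPase of HSP90, rose from 87.3, 90.9 and 93.3 CPM to 159.7, 148 and 141 CPM (0.73 ± 0.09). The libraries of the groups were well apart for Chordc1 and Ahsa1, with edgeR adjusted p of 3.13e-04 and 2.44e-04, and for Hspbp1 the adjusted p was 0.00376. Cdc37 (chr9:21133222-21149982), which brings kinases to HSP90, went from 196, 207 and 198 CPM to 277, 263 and 226 CPM (log2 fold change 0.35 ± 0.10 (SE), edgeR adjusted p = 0.0207). That call was lost without Ctrl_MV replicate 1 or 3 or KD_MV replicate 1 or 2 (adjusted p = 0.0619 to 0.0793). Ptges3 (chr10:128058954-128077272), encoding p23, which stabilises client-bound HSP90, went the other way, from 205, 184 and 231 CPM to 177, 169 and 141 CPM (log2 fold change -0.35 ± 0.12 (SE), edgeR adjusted p = 0.0425). The direction of Ptges3 rested on the scaling: it turned to 0.056 with library size only (adjusted p = 0.719), and with TMM the call was lost without Ctrl_MV replicate 1 or 3 or KD_MV replicate 2 or 3 (adjusted p = 0.0747 to 0.15) and with the replicate block (0.0811).

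Of the 8 genes for subunits of the CCT ring 7 rose and 0 fell. The log2 fold changes of those that rose ran from 0.36 ± 0.11 in Cct5 to 0.87 ± 0.11 in Tcp1 and 0.87 ± 0.10 in Cct3 (± SE), below those of Hspa8, Hsph1 and the inducible HSP70 pair. Tcp1 (chr17:12915701-12925067) had 156, 186 and 188 CPM in Ctrl_MV and 322, 312 and 333 CPM in KD_MV (edgeR adjusted p = 1.85e-04). Cct3 (chr3:88297116-88321767) had 152, 165 and 152 CPM in Ctrl_MV and 316, 269.7 and 271 CPM in KD_MV (edgeR adjusted p = 1.63e-04). For both genes every KD_MV library lay above every Ctrl_MV library. Cct6a rose from 120.1, 142 and 130.1 CPM to 236, 231 and 219.8 CPM (0.81 ± 0.10), and Cct7 from 184, 177 and 170.1 CPM to 336, 314 and 245 CPM (0.76 ± 0.13). Cct2, the subunit with the most counts, rose from 250.1, 288 and 279.7 CPM to 430.3, 409 and 391 CPM (0.59 ± 0.10), and Cct8 from 201, 196 and 211 CPM to 332, 323 and 286 CPM (0.63 ± 0.10). These 4 subunits also had groups apart, with edgeR adjusted p between 1.91e-04 (Cct6a) and 0.00118 (Cct7), and KD_MV replicate 3 was the lowest library of its group in each. Cct5 went from 229, 273 and 239.6 CPM to 339, 316 and 298 CPM (edgeR adjusted p = 0.0189). Cct4 (chr11:22990519-23003780) was the subunit that did not pass, with 151, 137 and 150.5 CPM in Ctrl_MV and 181, 173 and 143 CPM in KD_MV (log2 fold change 0.18 ± 0.11 (SE), edgeR adjusted p = 0.207). KD_MV replicate 3 fell inside the control range for Cct4, and without that library Cct4 passed upward (0.27, adjusted p = 0.0262), as it did with library size only (0.59, adjusted p = 0.00215). The call of Cct5 was lost without Ctrl_MV replicate 1 or 3 or KD_MV replicate 1 or 2 (adjusted p = 0.0513 to 0.0702). The annotation has other genes on the opposite strand overlapping Tcp1, Cct6a, Cct7 and Cct8, whose counts are uncertain to that extent.

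Each of the stacked rings of CCT holds every subunit once, and levels of the subunit genes can be set side by side per length. On the deposited TPM scale, which divides by length, subunit levels in Ctrl_MV ran from 90.8 ± 8.50 for Cct4 to 189 ± 10.3 for Cct2, and in KD_MV from 145 ± 13.7 for Cct4 to 418 ± 15.8 for Cct2 (mean ± SD, n = 3 libraries each). Cct2 was the highest subunit in all 6 libraries, and Cct4 was the lowest in 5 of them, Tcp1 in Ctrl_MV replicate 1. The highest level was 1.92, 2.35 and 2.17 times the lowest in Ctrl_MV and 2.82, 2.76 and 3.09 times in KD_MV. The summed TPM of the ring was 1044.7, 1093 and 1046 in Ctrl_MV and 2508, 2451 and 2307 in KD_MV, and the groups did not overlap. These sums include a shift of the scale. The median log2 fold change of all genes was 0.51 on log2(TPM + 1), against 0.030 with TMM scaling.

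**Figure D3:**
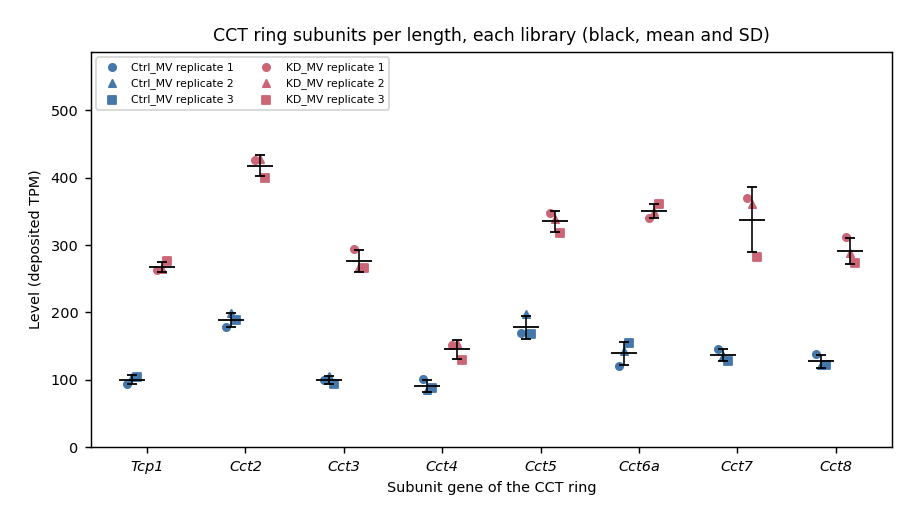
Deposited TPM of the 8 CCT subunit genes in each library (blue, Ctrl_MV; red, KD_MV; the marker shape gives the replicate; black, mean and SD of 3 libraries). All subunits lie higher in red on this scale, by least for Cct4 (90.8 against 145), and Cct2 is the highest in both groups. The median log2 fold change of all genes was itself 0.51 on log2(TPM + 1), and with TMM scaling Cct4 did not pass.

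The mitochondrial chaperones moved in opposite directions. Hspa9, encoding mortalin, the mitochondrial HSP70 that pulls proteins through the inner membrane, was the member with the largest fall: 1259, 1392 and 1259 CPM in Ctrl_MV and 433, 405 and 427 CPM in KD_MV (log2 fold change -1.63 ± 0.10 (SE), edgeR adjusted p = 6.03e-06). Every KD_MV library was far below every Ctrl_MV library, and the fall passed under all 19 alternatives run, between -1.66 and -1.06. Dnaja3, the J protein that serves Hspa9, fell slightly, from 55.4, 59.9 and 61.8 CPM to 49.5, 48.8 and 46.3 CPM (log2 fold change -0.29 ± 0.09 (SE), edgeR adjusted p = 0.0287). The direction of Dnaja3 turned with library size only (0.11, adjusted p = 0.351) and with limma on log2(TPM + 1) (0.27, adjusted p = 0.028). Its call was also lost with the replicate block (adjusted p = 0.0762) and without Ctrl_MV replicate 2 or 3 or KD_MV replicate 1 or 2 (0.0618 to 0.0969). Vasn lies within Dnaja3 on the same strand and Coro7 overlaps it on the other.

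The mitochondrial HSP60 and HSP10 genes rose. Hspd1 (chr1:55077835-55088243, minus strand), the HSP60 barrel, went from 182, 203 and 195 CPM to 479.7, 453 and 450.1 CPM (log2 fold change 1.25 ± 0.09 (SE), edgeR adjusted p = 1.53e-05). Hspe1 (chr1:55088132-55091307, plus strand), the HSP10 lid of that barrel, went from 63.0, 72.7 and 71.4 CPM to 232, 209.5 and 188 CPM (log2 fold change 1.61 ± 0.11 (SE), edgeR adjusted p = 1.14e-05). The genes are transcribed away from each other and overlap by 112 bases at their annotated starts. The triplets printed above for Hspe1 lie inside Hspd1 as annotated and before another RefSeq start of Hspd1, and the promoter at the outer RefSeq start of Hspd1 held no pair. Their log2 ratio was 1.53, 1.48 and 1.45 in Ctrl_MV and 1.05, 1.11 and 1.26 in KD_MV, and was lower in each KD_MV library than in any Ctrl_MV library (exact two-sided permutation p = 0.1). Annotated pseudogenes of both were near 0 apart from Hspd1-ps3, with 16, 32 and 35 counts in Ctrl_MV and 105, 80 and 57 in KD_MV. Trap1 (chr16:4039971-4077827), the mitochondrial HSP90, rose from 50.4, 56.7 and 52.5 CPM to 115, 105 and 103 CPM (log2 fold change 1.01 ± 0.10 (SE), edgeR adjusted p = 5.46e-05), and the annotation has Dnase1 overlapping it on the other strand.

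The order of Hspa9 and the cytosolic HSP70 genes was not the same in the groups. The log2 ratio of Hspa9 to Hspa8 was 1.55, 1.51 and 1.31 in Ctrl_MV and -1.71, -1.95 and -1.98 in KD_MV (exact two-sided permutation p = 0.1). All control libraries thus had more Hspa9 than Hspa8 counts and all KD_MV libraries fewer. The log2 ratio of Hspa9 to Hspd1, chosen after the values were seen and not tested, was 2.79, 2.78 and 2.69 in Ctrl_MV and -0.15, -0.16 and -0.08 in KD_MV. On the TPM scale Hspa9 was the highest of the 35 members in Ctrl_MV (576 ± 36.8, beside 542 ± 23.9 for Hsp90ab1, a gap within their spread) and ranked 13 in KD_MV (275 ± 6.08). Hsp90ab1 (2392 ± 318 TPM), Hspa8 (1483 ± 237) and Hspe1 (525 ± 47.2) led in KD_MV, where Hsp90aa1 (500.4 ± 45.8) followed within the spread of Hspe1. Summed over the 5 mitochondrial genes the share of counts was 0.139 to 0.157% in Ctrl_MV and 0.138 to 0.150% in KD_MV, with overlapping groups, whereas the HSP90 pair went from 0.109 to 0.119% up to 0.389 to 0.477%.

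**Figure D4:**
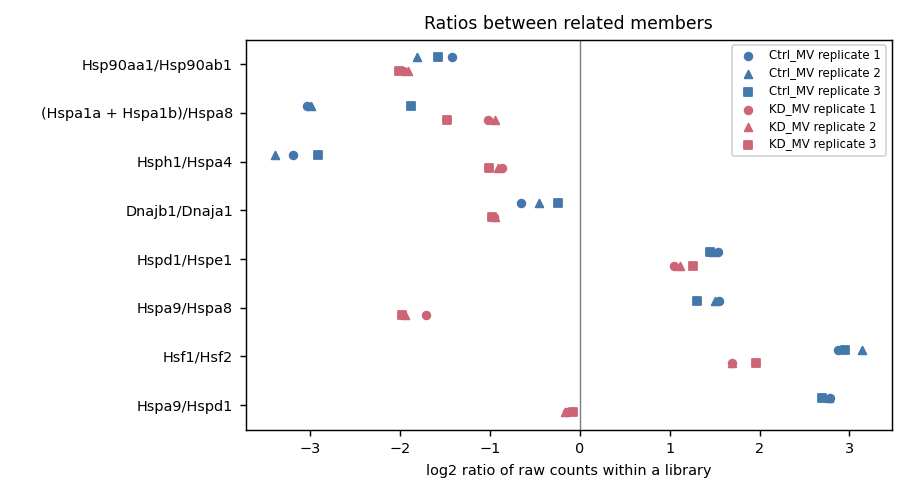
Log2 ratio of raw counts between related members within each library (blue, Ctrl_MV; red, KD_MV; the marker shape gives the replicate; the grey line marks equal counts). The groups are apart for all ratios drawn, of which Hspa9/Hspd1 was chosen after the values were seen and not tested. Hspa9/Hspa8 crosses from 1.31 or more in Ctrl_MV to -1.71 or less in KD_MV.

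Other chaperone genes, from lists drawn up by function, are given for comparison. Of 79 further cytosolic and mitochondrial genes 70 were tested, and 25 rose and 9 fell (median log2 fold change 0.17). Thus 35.7% of those tested were higher. Of all tested genes 27.8% were higher and 24.9% lower, and each list below stands beside these shares. The genes named for each list are those with the smallest p, given with their log2 fold change. Among other HSP70 relatives 5 of 7 tested rose and 1 fell, among them Hspa2 (1.93) and Hspa14 (0.95). With the stricter filter 3 of that list were called higher. Hspa12a, the other gene named by that rule, had 0, 6 and 6 counts in Ctrl_MV and 28, 29 and 67 in KD_MV, so it passed the filter only through KD_MV and its difference had to follow. The same holds for Hspa12b, also among those that rose, with 8, 5 and 10 counts in Ctrl_MV and 16, 29 and 35 in KD_MV. Neither gene met the stricter filter. Among other J proteins 9 of 23 rose and 3 fell, led by the histone chaperone Dnajc9 (2.16), Dnaja4 (1.48) and Dnajc12 (1.82). Other HSP70 co-factors gave 2 higher and 1 lower of 8, with Bag2, an inhibitor of the ubiquitin ligase CHIP, at 3.13, Bag4 at 0.52 and Bag6 at -0.28. Other HSP90 co-chaperones gave 4 higher and 2 lower of 8, led by Nudc (2.01), the phosphatase Ppp5c (1.06) and the cyclophilin Ppid (0.78).

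Among partners of the CCT ring, 2 of 9 tested prefoldin and CCT partner genes rose and 2 fell, with Pfdn1 at 0.76 and the phosducin-like Pdcl (-0.44) and Txndc9 (-0.48) lower. Other mitochondrial folding and protease genes gave 2 higher and 0 lower of 10, with Dnajc19 (0.72), of the import motor, and the protease subunit Clpp (0.43) higher and Hscb not passing (-0.35, edgeR adjusted p = 0.0579). Among other small heat shock genes 1 of 3 tested rose, namely Hspb11 (0.89), while Hspb9 (0.88) and Hspb6 (0.41) did not pass. Hspb9, with 5, 7 and 6 counts in Ctrl_MV and 19, 15 and 12 in KD_MV, met the filter only through KD_MV. The direction of its difference had to follow. Of the other HSF genes 0 of 2 tested were called, with Hsf4 at 0.80 (adjusted p = 0.238) and Hsbp1, an HSF1-binding protein, at -0.09 (adjusted p = 0.563). Beside these, 11 of 14 ER chaperones rose and 3 fell (median 1.05), led by Pdia4 (2.17), Sdf2l1 (3.04) and Calr (1.51), and 7 of 14 genes of the 20S proteasome core rose and 2 fell (median 0.28), led by Psma4 (0.66), Psmb2 (0.60) and Psma5 (0.68). Whether these lists differ from the 35 members was not tested.

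**Figure D5:**
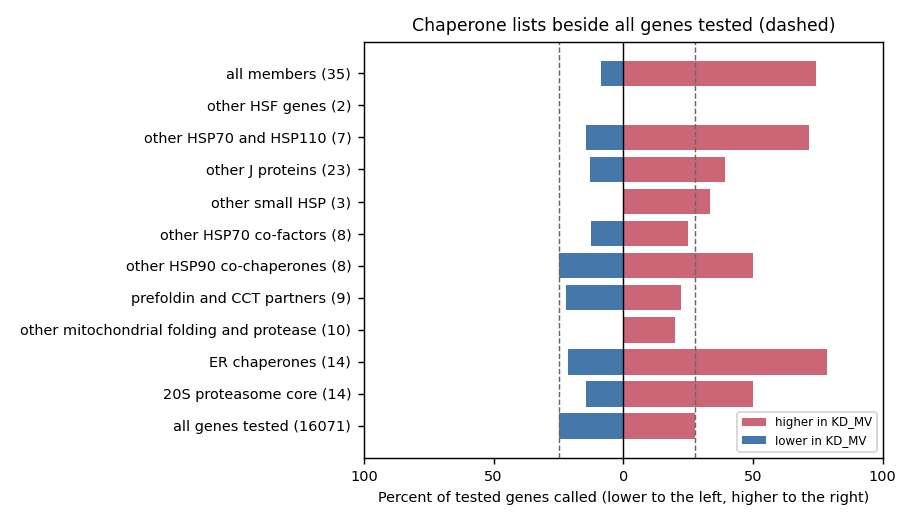
Percent of tested genes called higher (red, right) or lower (blue, left) in KD_MV for the 35 members, for each further list with the number tested in brackets, and for all 16071 genes (also dashed). Of the members 74.3% were higher, against 27.8% of all genes, and the lists of other HSF genes, HSP70 co-factors, CCT partners and mitochondrial folding and protease genes lie under the dashed line on the right; with library size only, more genes were called higher in all (7455 in place of 4464).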

How the data were processed

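Neutrophil RNA was made into libraries with a stranded mRNA kit, per the labels' protocols. Trim Galore, Subread, featureCounts and mm10 are named in the submitters' processing notes. Their versions and the strand setting are not given, so overlapping antisense genes are uncertain. For each gene and library the deposited table gives raw counts, TPM and FPKM, per the file headers. The deposited counts carry no normalization. The deposited TPM sum to between 999842 and 999905, and the length they imply for a member, as count over TPM, varied between libraries by 1.01 to 1.48 times. The deposited FPKM were not used. Even values made up 55.9% of counts from 1 to 40, for a reason not tested.

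The main test was edgeR 4.0.16 under R 4.3.3: genes kept by filterByExpr (a CPM cutoff worth about 10 counts in at least 3 of the 6 libraries, and 15 counts in total), TMM scaling, then glmQLFit with glmQLFTest between groups. P-values were adjusted by Benjamini-Hochberg across 16071 genes, with a threshold of 0.05. Standard errors were derived from the fold change and its F statistic. Ratios within a library were tested by exact permutation over libraries. Coding sequences, taken as longest reading frames of GENCODE M21 transcripts, were aligned with biopython 1.88. All 35 members were named, with the 3 smallest p of each further list. Members and lists were chosen with earlier results of these data known.

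Other settings tried were scaling by RLE, upper quartile or library size, no filter, CPM of at least 1 in 3 libraries, DESeq2 1.42.0, limma-voom 3.58.1, limma on log2(TPM + 1) and log2(TPM + 0.1) for mean TPM of at least 1, leaving out hemoglobin genes or each library, a replicate block and an adjusted p of 0.01. Halved counts and leaving out both replicates numbered 3 were added after seeing the data. The fit was tested on simulated counts in which few genes changed, up and down alike. That does not test the scaling where many genes differ, as they do here.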

Additional observations from a re-analysis of the deposited data

How the results depend on the processing

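Of the 35 members 25 kept both direction and side of the threshold under all alternatives run, namely 23 that rose, Hspa9 that fell and Hspb1 that did not pass. Library size only moved the median of all genes to 0.43 on the log2 scale (0.030 with TMM), and log2(TPM + 1) and log2(TPM + 0.1) moved it to 0.51 and 0.59, so differences smaller than these shifts are relative to the scaling. With library size only 7455 genes were higher and 2010 lower, further cytosolic and mitochondrial genes gave 47 higher and 1 lower, 1 member was lower, 0 co-chaperones and 1 mitochondrial gene were lower, and log2 fold changes turned in Hsf1 (0.18), Dnaja2 (0.19), Dnajb4 (0.38), Ptges3 (0.056) and Dnaja3 (0.11). With log2(TPM + 1) 7719 genes were higher and 1228 lower, the further genes gave 51 higher and 1 lower, 2 HSF and 4 HSP40 genes were higher, 1 member, 0 co-chaperones and 1 mitochondrial gene were lower, and differences turned in Hsf1 (0.34), Dnaja2 (0.36), Dnajb4 (0.52), Ptges3 (0.21) and Dnaja3 (0.27). With log2(TPM + 0.1) 7690 genes were higher and 1221 lower, the further genes gave 51 higher and 1 lower, 2 HSF and 4 HSP40 genes were higher, 1 member, 0 co-chaperones and 1 mitochondrial gene were lower, and differences turned in Hsf1 (0.35), Dnaja2 (0.36), Dnajb4 (0.55), Ptges3 (0.21) and Dnaja3 (0.28). The cause of these shifts was not tested. Without a filter 1 HSP40 gene was higher, 1 member, 2 further genes, 0 co-chaperones and 1 mitochondrial gene were lower, and Dnajb4 turned to 0.034. At an adjusted p of 0.01, 1 HSP40 gene was higher and 1 member, 2 further genes, 0 co-chaperones and 1 mitochondrial gene were lower. Hspa4 passed upward at 0.42 with library size only, 0.58 with log2(TPM + 1) and 0.59 with log2(TPM + 0.1). RLE scaling left 1 HSP40 gene higher, upper-quartile scaling 0 co-chaperones lower, and Hspa4 turned to -0.0071 with RLE and with DESeq2. Without both replicates numbered 3, 1 HSF gene, 0 co-chaperones and 1 mitochondrial gene were lower, and Hspa4 stood at -0.061 and Dnajb4 at -0.168. Without hemoglobin genes in the total, the members' share in Ctrl_MV was 0.649% in place of 0.584%.

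With each library left out in turn, 23 to 26 members were higher and 1 to 4 lower (4 without KD_MV replicate 3). The ranges were 1 to 2 for HSP40 genes higher, 0 to 1 for HSP40 and for HSF genes lower, 0 to 1 for co-chaperones lower, 1 to 2 for mitochondrial genes lower and 2 to 10 for further genes lower (2 without Ctrl_MV replicate 3 or KD_MV replicate 2, 10 without KD_MV replicate 3). Hspa4 then ran from -0.066 to 0.065 and Dnajb4 from -0.162 to 0.067. Same-numbered libraries did not deviate together from their group means (correlations -0.02, -0.11 and -0.04 for numbers 1, 2 and 3). Differently numbered libraries gave -0.07 to 0.12. With 3 libraries in each group, this check cannot show whether same-numbered libraries share an animal or a day. With a replicate block 26 members were higher and 1 lower, with 0 co-chaperones, 1 mitochondrial and 5 further genes lower. Members under 1 CPM, here Hspb1, are limited by depth.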
